A study of Mus musculus with 4 samples.

Results

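Dermal cells of dorsal back skin at E14.5 were compared between 1 library sorted as Axin2-positive and 1 library sorted as Axin2-negative, across all genes that both libraries measured. Genes were taken by their level: a named gene entered when its FPKM (sequenced fragments corrected for transcript length and library size) reached 5 in one of the libraries and lay above 0 in both, with every entry of its symbol marked OK by the authors' software. This gave 6697 of the 33565 gene names in either back table, and 2 of the 4 samples of the series. Of the genes, 5697 reached 5 FPKM in both libraries, 764 only in the positive one and 236 only in the negative one.

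Both libraries came from mouse embryos that carried LacZ at Axin2. The labels give collagenase at 1000 U/ml, hyaluronidase at 300 U/ml and FBS at 4% for both libraries. The fraction with reporter signal is called positive and the fraction without it negative, per the labels. The remaining samples of the series came from ventral foot skin at E17.5 and are not described here, apart from the closing values of 3 genes and 1 alternative scaling. The labels state no strain and no other allele, and they are silent on the sex of the embryos, the number pooled and the litters. Each group held 1 library, so no difference has a replicate check and no p-value is given. The study's design text asks whether Wnt signalling in the dermis shapes the regional programme of the mesenchyme.

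Wnt ligands bind Frizzled receptors and stabilise beta-catenin, which enters the nucleus with TCF and LEF proteins and switches on target genes. Axin2 is one of these targets and, as a scaffold of the complex that degrades beta-catenin, feeds back on the pathway. In embryonic back skin the dermis under the epidermis receives Wnt signal while it gives rise to upper and lower fibroblasts and to the condensates that become hair follicle papillae.

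The authors' lower and upper bounds stand after many of the FPKM values, though not all, and they cover counting and read assignment within a library only. Their median half-width was 9.27% of the FPKM in the positive and 10.6% in the negative library. Ratios are log2 of positive over negative with FPKM first divided by median-ratio factors (1.06 and 0.947) and 1 added, so ratios of low genes are understated. The range after a ratio takes the lowest and highest ratio that the bounds allow. A gene is called higher or lower when it was at least 2-fold apart, a rule of size and not a test.

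Some properties of the tables touch every count. For 1614 genes (24.1%) a deposited FPKM lay outside its own bounds, and this is said beside the called genes described below. A gene was quantified either from an annotated model or from a locus that Cufflinks assembled in that library, and for 399 genes the locus was assembled in the positive library only and for 379 in the negative only. Xist was close to 0 in both back libraries (0.00172 and 0.00200 FPKM), and the Y-linked Eif2s3y stood at 14.6 and 8.61 FPKM. Defining dermal fibroblast genes were high in both libraries: Col1a2, at 883 FPKM in the positive and 533 in the negative library, Twist2, at 116 and 111, and Lum, at 806 and 785. The Twist2 locus was assembled in the negative library only, and the values of Col1a2 and Lum lay outside their bounds.

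Markers of other cells were measured in the same way. Blood markers were lower in the positive library: the 10 erythroid and platelet entries found summed to 1024 FPKM against 8270 in the negative library, the 11 mast cell markers to 29.6 against 103 and the 21 macrophage and leukocyte markers to 18.2 against 47.5. Keratinocyte markers went the other way, with 16 summing to 53.8 against 30.0, as did neuronal markers, with 11 summing to 51.9 against 19.3. Stmn2 alone gave 47.4 and 15.8 of the neuronal sums, and Krt10 23.5 and 6.63 of the keratinocyte sums. A single joined alpha-globin entry, given further below, made up nearly all of both erythroid and platelet sums. Endothelial markers summed to 93.5 against 72.7 over 20 genes and pericyte markers to 42.5 against 33.1 over 13. The 3 endothelial entries that entered by their level gave 82.3 and 61.3 of the endothelial sums, and 12 were under 1 FPKM in both libraries. Skeletal muscle markers summed to 11.8 against 12.7, Schwann cell markers to 13.7 against 10.9 and melanocyte markers to 2.02 against 1.97. Ptprc, the pan-leukocyte CD45 gene, was near 0 in both (0.0395 and 0.0534 FPKM), as were Pecam1 (0.808 and 0.886), Epcam (0.806 and 0.569), Sox10 (0.0925 and 0.121) and Myod1 (0.141 and 0.123). These shifts go with every gene group below, and their part in the results was not tested. In a bulk library, fewer cells of a type and less RNA per cell cannot be told apart.

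Most genes differed little. The log2 ratio had a median of 0.03, with the 5th percentile at -0.69 and the 95th at 0.86, and 83.3% of genes lay within 1.5-fold. In all, 414 genes (6.18%) were at least 2-fold apart, 241 higher in the positive library (3.60%) and 173 lower (2.58%). Called counts of the gene lists below stand beside these shares. Their counts above and below 0 stand beside 53.5% and 46.5% of all genes. With FPKM as deposited, which sits 0.16 higher on the log2 scale, the split was 336 higher and 134 lower, so 71.5% of the called genes were higher in place of 58.2%. Rescaled bounds were also apart for 220 of the higher genes (3.29% of all genes) and 157 of the lower (2.34%), and bounds were apart at any size of ratio for 2674 genes (39.9%). Among the 5697 genes above the level limit in both libraries 113 were higher and 103 lower, and among those that passed through 1 library alone 128 were higher and 70 lower, which the limit itself favours. Any of the 6697 genes described below that stood under 5 FPKM in 1 library passed in this way. Just inside the limit, 321 genes whose larger FPKM was between 5 and 5.5 had a median ratio of 0.03, and 351 just outside, between 4.5 and 5, a median of 0.07.

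**Figure D1:**
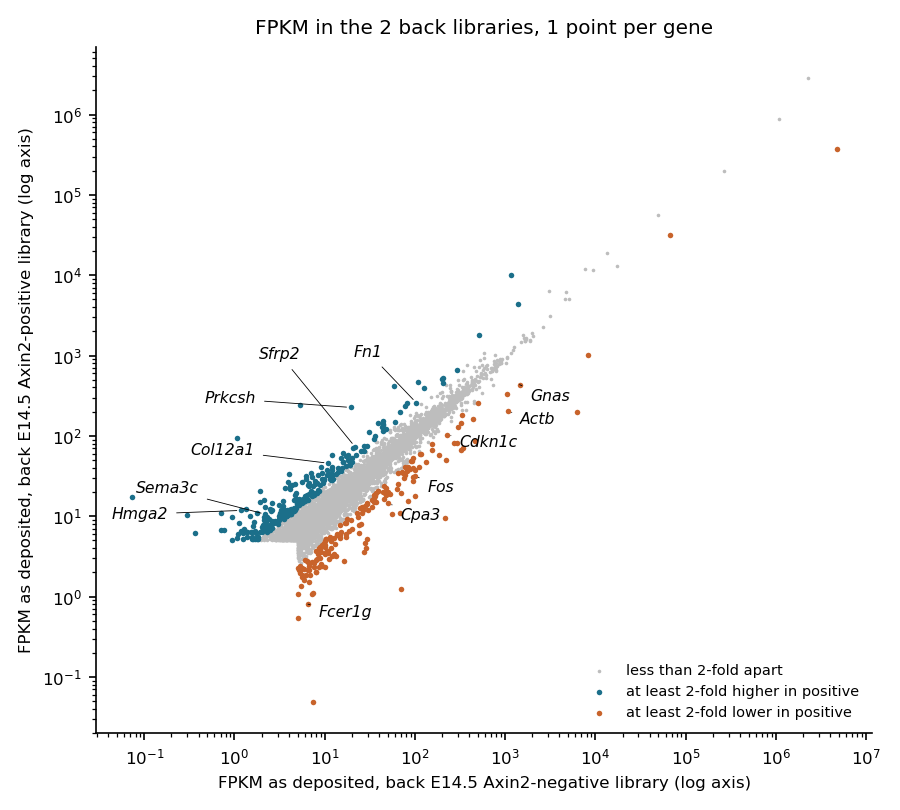
FPKM as deposited of each of the 6697 genes in the Axin2-negative (x axis, log scale) and Axin2-positive (y axis, log scale) back library, 1 point per gene, with genes at least 2-fold apart after rescaling in colour. The 241 higher genes lie above the diagonal band and the 173 lower genes below it, and the points of extreme FPKM at the upper right are mostly short non-coding RNA entries.

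The kind of table entry moved with the calls. Where the locus was assembled in the positive library only, 36 of 399 genes (9.02%) were higher and 7 (1.75%) lower. Where it was assembled in the negative library only, 2 of 379 (0.528%) were higher and 24 (6.33%) lower, so the direction followed the library with the assembled locus. Genes assembled in both gave 172 higher and 108 lower of 4258, and genes annotated in both gave 31 and 34 of 1661. A mixed entry is therefore named beside the called genes described below, where they have one.

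**Figure D2:**
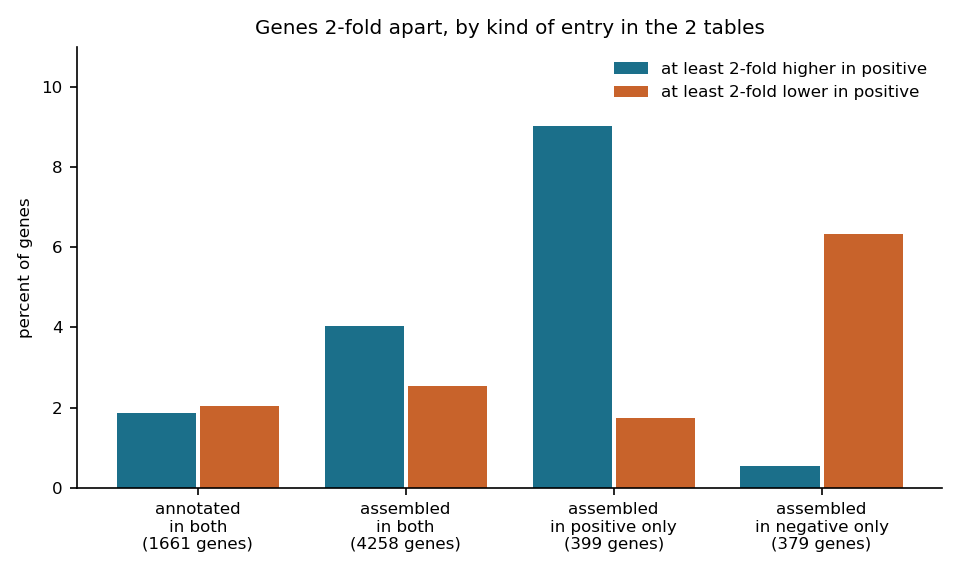
Percent of genes at least 2-fold higher (blue) or lower (orange) in the Axin2-positive library, by how the 2 tables defined the gene. Higher calls reach 9.02% where only the positive library has an assembled locus, and lower calls reach 6.33% where only the negative library has one.

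Axin2 itself stood at 4.49 FPKM (3.89–5.09) in the positive and 3.13 FPKM (2.63–3.64) in the negative library, at the locus chr11:108781663-108812098 of mm9. The level was below 5 in both, so the gene is not among the 6697. The log2 ratio was 0.29, and its range from -0.05 to 0.62 included 0.

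Genes encoding secreted Wnt inhibitors and modulators mostly had ratios above 0. Of 13 such genes 7 passed the level limit, 6 had a ratio above 0 and 1 below, and the median was 0.73, against 53.5% above 0 and a median of 0.03 over all genes. Notum and Dkk1 passed through the positive library alone, and the 5 genes at or above 5 FPKM in both libraries had a median of 0.76. Only Sfrp2 reached 2-fold. All 7 had the same kind of entry in both tables, and without Cthrc1, whose value lay outside its bounds, the median was 0.72.

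Sfrp2, which encodes a soluble Frizzled-like protein that binds Wnts, stood at 73.5 FPKM (71.2–76.8) against 21.6 (20–23.2) at chr3:83570243-83578238 of mm9, a log2 ratio of 1.57 (1.42–1.74). Its relatives Sfrp1, at 13.8 FPKM (13.1–14.6) against 6.93 (6.31–7.56), and Sfrp5, at 11.4 (9.57–11.8) against 5.86 (4.73–6.29), had ratios of 0.76 and 0.72. The bounds of these 3 genes did not overlap between the libraries. Wif1, whose product binds Wnts outside the cell, stood at 55.5 FPKM (52.2–58.9) against 29.7 (27.8–31.6), a log2 ratio of 0.73 (0.55–0.90). Cthrc1, a secreted modulator of Wnt receptor complexes, stood at 136 FPKM against 68.9, a ratio of 0.81, with the negative value above its own bounds. Notum, which encodes an enzyme that inactivates Wnts, stood at 6.59 FPKM (5.87–7.31) against 3.45, but the bounds of the latter ran from 2.38 to 97.9. Dkk1, an inhibitor that binds LRP co-receptors, was the exception, at 5.09 FPKM (4.28–5.43) against 4.82 (4.01–5.19), and its bounds overlapped.

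Of 15 Wnt ligand genes 2 passed the level limit. Wnt5a, a ligand that acts mainly without beta-catenin, stood at 26.1 FPKM (25.1–27.5) against 17.1 (16.3–18.3), a log2 ratio of 0.43 (0.29–0.57). Wnt11 stood at 10.6 FPKM against 8.52, with overlapping bounds and a ratio of 0.14. Among receptors and R-spondins 6 of 22 passed, with 4 ratios above 0, 2 below and none 2-fold apart. Their median was 0.18, and the 4 at or above 5 FPKM in both libraries had a median of -0.04. Fzd1 passed through the positive library alone. The Frizzled receptor genes Fzd1, at 9.36 FPKM (8.53–9.91) against 4.51 (4.00–4.97), and Fzd2, at 12.1 (11.3–12.8) against 7.04 (6.37–7.68), had ratios of 0.78 and 0.56. Ror2, a receptor of Wnt5a, had a ratio of -0.25 (-0.50 to 0.02) with an entry assembled in the positive library only. Rspo1, which encodes a protein that strengthens Wnt reception, stood at 11.3 FPKM in both libraries, a ratio of -0.15 (-0.41 to 0.11).

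Target and feedback genes of beta-catenin stayed close together. Of 17 genes 13 passed the level limit, 5 had ratios above 0 and 8 below, none was 2-fold apart, and the median was -0.09 (0.05 as deposited). Apcdd1, a membrane inhibitor that is itself a target, stood at 69.0 FPKM (67.6–71.9) against 61.9 (59.5–64.6), a ratio of -0.00. Lef1, a nuclear partner of beta-catenin, named after its values were seen, stood at 8.66 FPKM (7.94–9.42) against 8.31 (7.5–9.12), and its bounds overlapped. Ccnd1, the cyclin D1 gene, was at 21.7 FPKM (20.8–22.6) against 29.1 (27.0–31.3), a ratio of -0.56. Cd44, an adhesion receptor gene, was at 12.6 FPKM (11.8–14.3) against 6.88 (6.26–7.57), a ratio of 0.64, and Tcf7l2 at 3.49 (3.18–4.66) against 5.64 (5.02–7.23), a ratio of -0.69. The signs within the list therefore differed from gene to gene. Of 7 intracellular components measured, 4 had ratios above 0 and 3 below, with a median of 0.01.

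**Figure D3:**
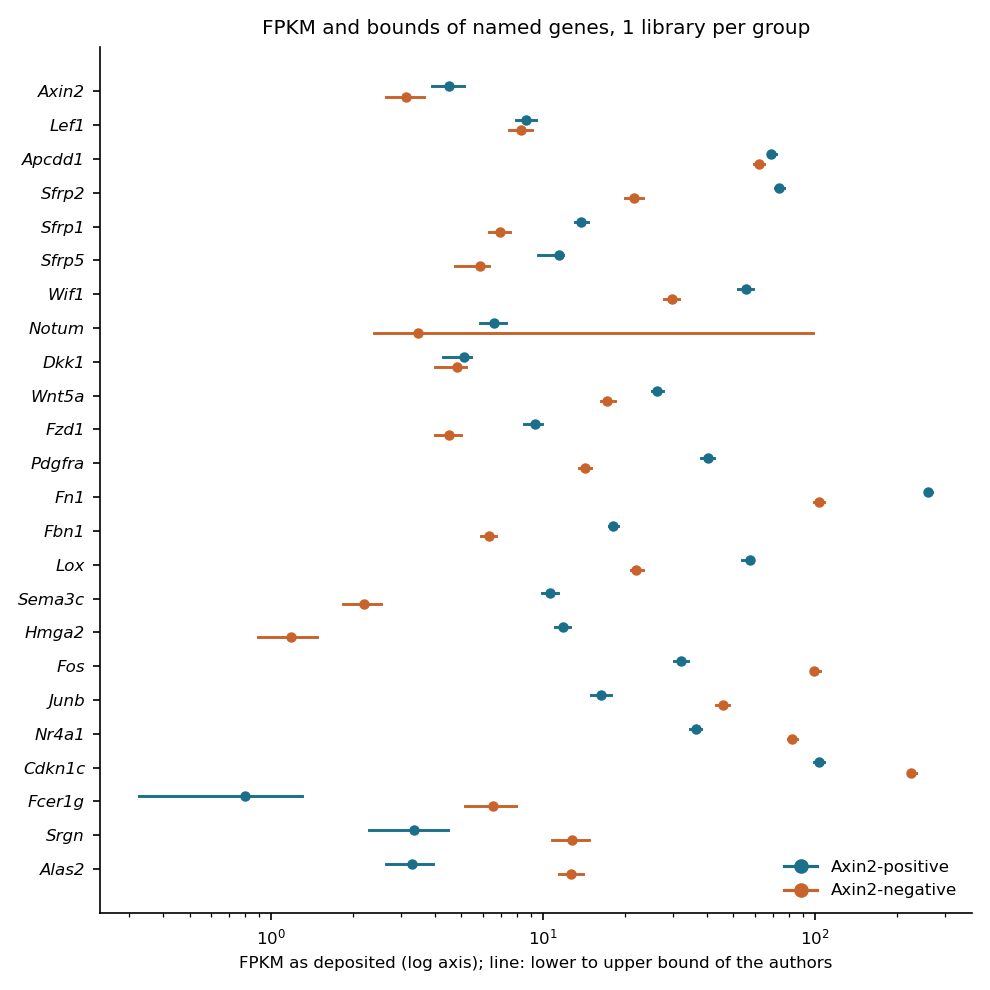
FPKM as deposited (log x axis) of named genes in the Axin2-positive (blue) and Axin2-negative (orange) back library, with lines from the authors' lower to upper bound and 1 library per group. Sfrp2, Sfrp1, Sfrp5, Wif1, the fibroblast gene Pdgfra and the matrix genes lie to the right in the positive library with bounds apart, while Fos, Junb, Nr4a1, Cdkn1c and the blood cell genes at the bottom lie to the left.

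BMP antagonists and BMP response genes were also measured. All 5 antagonist genes that passed the level limit, of 15, had ratios above 0, with a median of 0.27 and 1 called, and the median of the 3 with the same kind of entry in both tables was 0.70. Sostdc1, whose product binds BMPs and also LRP co-receptors, stood at 12.1 FPKM (9.98–12.2) against 6.27 (5.02–6.75), a ratio of 0.70 (0.36–1.0). Fstl1, a follistatin-like secreted factor, reached 235 FPKM against 78.5, a ratio of 1.41, but its positive value lay above its bounds of 205 to 218. The Id genes encode inhibitors of helix-loop-helix factors and respond to BMP. Of 4 measured, 1 was above 0 and 3 below, with a median of -0.97, and 2 were called lower, beside 2.58% of all genes. The 3 at or above 5 FPKM in both libraries had a median of only -0.26, since Id4 passed through the negative library alone. Among genes with the same kind of entry in both tables the median was -0.64. Id3 stood at 153 FPKM (149–159.6) against 103 (97.7–109), a ratio of 0.41, and Id4 at 2.30 (1.49–2.81) against 8.73 (7.80–9.66), a ratio of -1.68. Id1 stood at 81.3 FPKM against 269, a ratio of -1.87, with the positive value outside its bounds and a locus assembled in the negative library only. Id2, at 118 FPKM against 127, had a ratio of -0.26, with a positive value outside its bounds and a locus assembled in the negative library only.

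In the FGF pathway 6 of 20 genes passed the level limit and 2 were 2-fold higher, beside 3.60% of all genes. Both called genes passed through the positive library alone, and the 4 at or above 5 FPKM in both libraries had a median of 0.02. Dusp6, a phosphatase gene induced by FGF through ERK, stood at 8.75 FPKM (8.01–9.49) against 3.01 (2.53–3.50), a ratio of 1.15 with a locus assembled in the positive library only. Fgfr4, an FGF receptor gene, stood at 10.4 FPKM (1.99–20.5) against 0.294 (0.141–1.20), and its ratio of 3.05 had a range from 0.35 to 4.15. The receptor gene Fgfr1, the most abundant of the list, was at 35.0 FPKM (34.0–37.0) against 31.0 (30.1–33.0), a ratio of 0.02. Another FGF feedback gene, Spry1, had a ratio of -0.21 (-0.42 to -0.00), opposite in sign to that of Dusp6.

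Of 11 Hedgehog reception genes 7 passed, 4 with ratios above 0 and 3 below. The co-receptor gene Cdon stood at 10.6 FPKM (9.88–11.4) against 3.64 (3.35–4.41), a ratio of 1.19, and its relative Boc at 18.1 against 10.5 (8.71–11.2), a ratio of 0.58 (0.19 to 0.93). The transcription factor gene Gli1, a pathway target, was at 6.58 FPKM (5.71–7.45) against 7.90 (6.84–8.96), a ratio of -0.37, and Gli3 had a ratio of -0.69. Cdon and Boc thus lay on the opposite side of 0 from Gli1 and Gli3. Cdon passed through the positive library alone, and the 4 Hedgehog genes at or above 5 FPKM in both libraries had a median of 0.03. Among Notch pathway genes, Hes1, a repressor gene that responds to Notch and to other signals, stood at 34.3 FPKM (32.1–36.8) against 64.7 (61.4–68.3), a ratio of -1.05.

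Other growth factor genes were above 0 in 11 of the 13 measured, with a median of 0.27 and 1 called. Ptn, the gene of the heparin-binding factor pleiotrophin, stood at 121 FPKM (119–126) against 48.3 (46.2–50.6), a ratio of 1.16 (1.07–1.27). Igf1 stood at 8.29 FPKM (7.84–8.99) against 3.39 (3.07–4.00), and Igfbp3, which encodes a carrier of insulin-like growth factors, at 20.2 (17.6–20.8) against 8.91 (8.08–9.73) with a locus assembled in the positive library only. Both had a ratio of 0.95, and Igf1 passed the level limit through the positive library alone. The chemokine gene Cxcl12 had a ratio of 0.48 (0.35–0.63). Ntf3, which encodes a neurotrophin, was one of the genes that went the other way, at 6.18 FPKM (5.33–7.05) against 9.28 (8.15–10.4), a ratio of -0.66.

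Axon guidance genes were above 0 in 12 of the 16 measured, with a median of 0.35, against 53.5% of all genes above 0. The 10 at or above 5 FPKM in both libraries had a median of 0.32. Sema3c and Sema3a passed through the positive library alone, which the limit itself favours. Sema3c, a secreted semaphorin gene, stood at 10.6 FPKM (9.89–11.3) against 2.19 (1.84–2.53), a ratio of 1.74 (1.5–1.99), and was the 1 called gene of the list. Sema3a, which encodes a repellent of sensory axons, stood at 5.36 FPKM (4.88–6.05) against 2.06 (1.79–3.12), a ratio of 0.94. The transmembrane semaphorin gene Sema6d was lower, with a ratio of -0.64 (-0.84 to -0.37). Among adhesion genes 8 of 13 were above 0, and those that reached 5 FPKM in both libraries had a median of 0.20. Alcam, an immunoglobulin-family adhesion gene that passed through the positive library alone, stood at 7.31 FPKM (6.43–8.06) against 2.44 (2.03–2.85), a ratio of 1.15. Vcam1, the most abundant adhesion gene, stood at 129 FPKM (127–133) against 78.7 (76.6–81.9), a ratio of 0.55.

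Fibroblast genes were counted in general and by dermal layer. Of 16 general fibroblast genes 14 were measured, 10 above 0 and 4 below, with a median of 0.46, and 1 called. For 8 of the 14 a value lay outside its bounds, and without them the median was 0.86. All 7 lower dermal and fascia genes measured, of 12, were above 0, with a median of 0.80 and 2 called, beside 3.60% of all genes called higher. Of the upper dermal genes 6 of 7 were below 0 and none was called, with a median of -0.09 that turned to 0.06 as deposited. Among the 3 lower dermal genes with the same kind of entry in both tables the median was 0.38. The difference between the lists was not tested.

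Pdgfra, the platelet-derived growth factor receptor gene of dermal fibroblasts, was found at 40.2 FPKM (38.1–42.5) against 14.2 (13.5–15), a ratio of 1.29 (1.14–1.43). Pdgfrb, the related receptor gene that pericytes also express, lay the other way, at 8.56 FPKM (8.07–9.11) against 14 (13–15), a ratio of -0.79. Neither pair of bounds overlapped, so the receptors differed in direction. Of the lower dermal genes, Mfap5, which encodes a microfibril protein, stood at 20.9 FPKM (18.7–23.2) against 8.43 (6.94–9.98), a ratio of 1.07. Cd248, a stromal membrane protein gene, had a ratio of 1.29 and the matrix protein gene Dpt 1.0, both with loci assembled in the positive library only, and Dpt fell just short of the 2-fold limit. Dlk1, which encodes a Notch-like inhibitor of fat cell formation, was the most abundant after Mest, at 294 FPKM (291–304) against 202 (197–209.8), a ratio of 0.38. Among upper dermal genes Crabp1, which encodes a retinoic acid carrier, stood at 802 FPKM (796–829) against 1018 (1007–1051), a ratio of -0.50. Lrig1, a membrane protein gene used to mark upper dermis, stood at 15.5 FPKM (14.6–16.5) against 14.9 (14–15.9), and its bounds overlapped.

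Papilla condensate genes were mostly low. Of 21 genes 6 passed the level limit, 2 with ratios above 0 and 4 below, and 8 were under 1 FPKM in both libraries, among them Sox2, a transcription factor gene of condensates, at 0.140 and 0.162 FPKM. Cdkn1a, the p21 cell cycle inhibitor gene and the 1 called gene of the list, stood at 4.13 FPKM (3.54–4.74) against 9.99 (8.98–11.1), a ratio of -1.23. Edn3, a peptide signal to melanocytes, had a ratio of 0.38 (0.10–0.67).

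Dermal transcription factor genes went both ways, 10 above 0 and 7 below among 17 measured. Nfia, a nuclear factor I gene, stood at 56.4 FPKM (53.0–59.9) against 17.3 (16.3–19.1), a ratio of 1.5 (1.28–1.67), and was the 1 gene 2-fold apart. Osr2, a zinc finger gene of embryonic mesenchyme, stood at 18.8 FPKM (17.4–20.2) against 8.82 (7.84–9.81), a ratio of 0.87. The related repressor genes Snai2 and Snai1 lay apart, with a ratio of 0.83 (0.47 to 0.99) for Snai2 and of -0.75 (-1.05 to -0.44) for Snai1, which stood at 8.75 FPKM against 13.8. Tcf4, a helix-loop-helix gene, had a ratio of -0.74. The most abundant members, Twist1 and Twist2, which direct mesenchymal fate, had ratios of 0.01 and -0.09.

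Matrix genes were counted by class. Elastic fibre genes were above 0 in 13 of 17, with 5 called higher, none lower and a median of 0.38. Proteoglycan and matricellular genes were above 0 in 14 of 18, with 4 called higher, none lower and a median of 0.49. These counts stand beside 3.60% of all genes called higher. Collagens split, with 2 called higher and 3 lower among 16, and their median of 0.21 turned to -0.31 without the 5 genes whose value lay outside its bounds.

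Fbn1, the gene of the microfibril protein fibrillin 1, was at 18.1 FPKM against 6.29 (5.90–6.68), a ratio of 1.25 (1.13–1.38). Lox, which encodes the enzyme that crosslinks elastin and collagen, stood at 57.7 FPKM (54.0–58.6) against 22 (21–23.2), a ratio of 1.20. Fbln2, an elastic fibre component gene, had a ratio of 1.21 (0.91–1.41), and Efemp1, a related fibulin gene, 1.44 with a positive value above its bounds. Mfap2, the most abundant member of the list, did not follow, at 411 FPKM (406–427) against 353 (343–366), a ratio of 0.06. Fn1, the fibronectin gene, stood at 259.7 FPKM (255–269.7) against 103 (99.4–108), a ratio of 1.16 (1.07–1.27). Among small leucine-rich proteoglycans Kera, the keratocan gene, stood at 6.95 FPKM (6.23–7.66) against 2.41 (1.97–2.86), a ratio of 1.09. Kera passed the level limit through the positive library alone. Aspn and Ogn had ratios of 1.94 and 1.15 but values outside their bounds, and the abundant Lum had -0.12.

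The collagen genes called higher were both fibril-associated. Col12a1 stood at 45.7 FPKM (43.4–48.2) against 10.9 (10.3–11.7), a ratio of 1.83 (1.66–1.97), and Col14a1 at 29.0 (26.8–31.1) against 6.15 (5.65–6.65), a ratio of 1.92 (1.72–2.13). Both encode collagens that sit on the surface of fibrils. The fibrillar genes Col3a1 and Col1a2 had ratios of 0.73 and 0.57, with values outside their bounds in both libraries. Col6a3, a chain of the microfibrillar collagen VI, stood far lower, at 67.5 FPKM (66.0–70.7) against 325 (309–343), a ratio of -2.41 (-2.52 to -2.27). Its partner chains, named after their values were seen, did not move with it: Col6a1 had a ratio of 0.64, with the positive value outside its bounds, and Col6a2 -0.01. Col16a1, another fibril-associated collagen gene, had a ratio of -1.66 (-2.09 to -1.26), and Emid2, an older symbol for a collagen gene, -1.40.

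Among collagen-processing genes Lepre1, which encodes a prolyl 3-hydroxylase, stood at 31.7 FPKM (29.5–34.0) against 12.2 (11.2–13.5), a ratio of 1.16, and the collagen chaperone gene Serpinh1 had -0.41. Metalloproteases and their inhibitors were above 0 in 8 of 10, with a median of 0.63 and none called. The 7 at or above 5 FPKM in both libraries had a median of 0.53. The protease gene Mmp2 stood at 37.0 FPKM (35.5–38.8) against 22.9 (21.6–24.3), and the inhibitor gene Timp2 at 36.9 (33.7–40.1) against 18.2 (17.1–19.3), ratios of 0.52 and 0.83. Their bounds were apart in both cases.

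**Figure D4:**
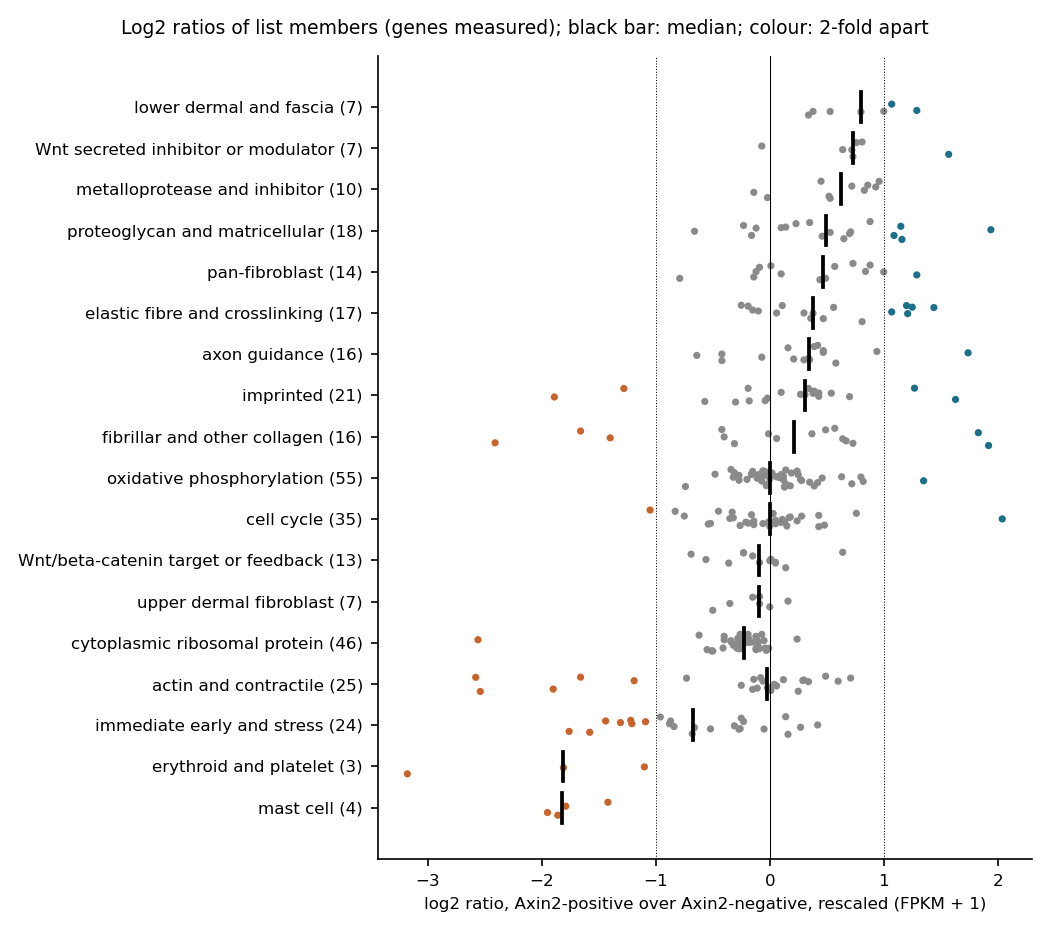
Log2 ratios, Axin2-positive over Axin2-negative after rescaling (x axis), of the measured genes in 18 gene lists, 1 point per gene, with a black bar at the list median and dotted lines at 2-fold. Lower dermal genes and secreted Wnt inhibitors have medians of 0.80 and 0.73, Wnt targets lie near 0, and immediate early, erythroid and mast cell genes lie to the left with medians of -0.67, -1.81 and -1.83.

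Immediate early and stress genes were lower in the positive library. Of 32 genes 24 passed the level limit, 20 with ratios below 0 and 4 above, against 46.5% of all genes below 0. The median was -0.67 (-0.52 as deposited, and -0.41 among genes with the same kind of entry in both tables), and 7 genes were called lower beside 2.58% of all genes. Many of these genes encode transcription factors and signal dampers that cells transcribe soon after a stimulus.

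Fos, a subunit of the AP-1 transcription factor, stood at 32.0 FPKM (30.2–34.2) against 99.3 (96.4–104), a ratio of -1.76 (-1.90 to -1.62). Its partner gene Junb stood at 16.3 FPKM (15–17.7) against 45.7 (43.1–48.3), a ratio of -1.58, and the nuclear receptor gene Nr4a1 at 36.3 (34.5–38.1) against 82.2 (79.7–85.7), a ratio of -1.31. The bounds of all 3 were apart. Gadd45b, a stress response gene, had a ratio of -1.22 (-1.40 to -1.05). Atf3, a stress-induced repressor gene, stood at 11.8 FPKM (10.7–12.9) against 30.4 (28.6–32.3), a ratio of -1.44 despite a locus assembled in the positive library only. Btg2, an antiproliferative gene, stood at 14.7 FPKM (13.6–15.7) against 29.1 (27.7–30.7), a ratio of -1.09 with a locus assembled in the negative library only. The 4 genes above 0, named after their values were seen, were Egr1 (0.42), Jund (0.27), Klf4 (0.16) and Klf6 (0.14).

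Transcription of such genes is known to run partly through cAMP response elements, so the 250 bases before the start of 3 called genes that hold such an element are shown, from RefSeq on GRCm38.p6 and 5′ to 3′ on the strand of the gene. Capitals mark the core TGACGT on either strand. Fos lies at chr12:85473640-85473889 (plus strand), Atf3 at chr1:191183334-191183583 (minus strand) and Btg2 at chr1:134079156-134079405 (minus strand).
Fos: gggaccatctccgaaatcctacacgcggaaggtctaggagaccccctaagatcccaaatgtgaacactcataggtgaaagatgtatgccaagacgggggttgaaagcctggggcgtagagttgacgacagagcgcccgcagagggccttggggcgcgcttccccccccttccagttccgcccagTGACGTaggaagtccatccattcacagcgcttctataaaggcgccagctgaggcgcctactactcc
Atf3: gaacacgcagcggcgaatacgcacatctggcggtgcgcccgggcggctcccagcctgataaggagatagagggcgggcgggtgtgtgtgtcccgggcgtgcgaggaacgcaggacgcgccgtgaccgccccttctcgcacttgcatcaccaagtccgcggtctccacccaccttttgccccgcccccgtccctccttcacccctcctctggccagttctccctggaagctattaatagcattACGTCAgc
Btg2: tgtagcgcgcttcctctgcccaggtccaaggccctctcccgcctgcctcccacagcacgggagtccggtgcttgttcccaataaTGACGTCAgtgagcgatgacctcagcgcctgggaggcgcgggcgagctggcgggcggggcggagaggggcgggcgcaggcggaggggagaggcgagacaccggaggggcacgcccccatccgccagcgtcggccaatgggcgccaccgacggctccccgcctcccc
The core occurred once in the Fos and Atf3 windows, and in the Btg2 window the matches on both strands overlap in a palindrome. The genes were picked for holding the core, which the windows of the called genes Junb, Nr4a1 and Ier3 do not. The window of Gadd45b, also called lower, is not described here. Among 18 immediate early genes with a RefSeq promoter, 4 (22.2%) held it, against 1773 of 27025 promoters of all genes (6.56%). The core was not particular to this list. It occurred in 3 of 10 promoters (30.0%) of beta-catenin target and feedback genes, none of which was called, and in 0 of 4 of secreted Wnt inhibitor genes. The AP-1 letters TGACTCA, searched on both strands, occurred in none of the 18 and in 4.43% of all promoters, and the TCF/LEF core CTTTGA in none of the 18 and in 14% of all. Of the secreted Wnt inhibitor genes 4 had such a promoter, and 1 held CTTTGA. A match is a description of these letters, not a site or a cause.

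Heat shock genes were below 0 in 7 of 10, with a median of -0.25. Hspd1, the mitochondrial chaperonin gene, had a ratio of -1.39 with a positive value outside its bounds, while Hspa5, the chaperone gene of the endoplasmic reticulum, stood at 394 FPKM (394–406) against 243 (242–251), a ratio of 0.54.

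Actin and contractile genes had 12 ratios above 0 and 13 below, with 5 called lower and none higher, beside 2.58% and 3.60% of all genes. Actb, the cytoplasmic beta-actin gene often used as a reference, stood at 202 FPKM (198–209.8) against 1062 (1057–1094), a ratio of -2.54 (-2.61 to -2.48). Beta-actin has processed pseudogene copies that could share its reads, so this value is uncertain. Myh9, the non-muscle myosin heavy chain IIA gene, stood at 3.18 FPKM (2.94–3.70) against 13.2 (11.6–14.8), a ratio of -1.90. Its relative Myh10, named after its values were seen, lay the other way with a ratio of 0.71 (0.47–0.99). The actin crosslinker gene Flna had a ratio of -1.66 (-1.78 to -1.48) and the tropomyosin gene Tpm3 -1.19. Marcks, which encodes a membrane protein that binds actin, had -2.58 with a mixed entry and a negative value outside its bounds.

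Cell cycle genes did not separate the libraries. Of 38 genes 35 were measured, 17 above 0 and 18 below, with a median of -0.00 (0.15 as deposited). Tpx2, a spindle assembly factor gene, stood at 57.5 FPKM (52.0–63.1) against 11.9 (10.9–13.1), a ratio of 2.04, and Uhrf1, which maintains DNA methylation, at 4.92 (4.28–5.56) against 10.2 (9.31–11.1), a ratio of -1.05. Ccna2, the cyclin A2 gene, had a ratio of 0.76 and Mcm5, a replication helicase gene, -0.83. Among inhibitors, Cdkn1c, the imprinted p57 gene, stood at 103 FPKM (99.4–108) against 225 (221–234), a ratio of -1.28 (-1.38 to -1.18). Btg1, an antiproliferative gene, lay opposite to its relative Btg2, at 12.9 FPKM (12.3–13.6) against 2.20 (1.91–2.48), a ratio of 1.99 with a locus assembled in the positive library only.

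Hmga2, a chromatin protein gene of embryonic and stem cells, stood at 11.8 FPKM (11–12.5) against 1.18 (0.893–1.47) at chr10:119798331-119913525 of mm9. Its ratio of 2.43 (2.16–2.73) went against the entry pattern, since its locus was assembled in the negative library only. The related Hmga1 stood at 30.6 FPKM (28.6–32.7) against 41.1 (38.9–43.8), a ratio of -0.57. Imprinted genes were above 0 in 13 of 21, with a median of 0.31 and 2 called in each direction. Igf2r, the receptor gene that clears IGF2, stood at 24.6 FPKM (22.4–26.7) against 6.49 (5.97–7.77), a ratio of 1.63, while its ligand gene Igf2 had 0.27 (0.19–0.37). Gnas, whose complex locus encodes the stimulatory G protein alpha subunit, stood at 434 FPKM (431–449) against 1443 (1407–1503), a ratio of -1.89. The joined Meg3 entry had a ratio of 1.27, but its bounds overlapped between libraries.

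Ribosomal protein genes were shifted by a small amount, with 45 of 46 below 0, a median of -0.23 (-0.08 as deposited) and 1 called. That gene, Rps20, shares its entry with a small nucleolar RNA and stood at 86.1 FPKM (79.5–92.8) against 459 (443–481), and Rps14 was the 1 gene above 0, named after its values were seen, at 0.24. Many ribosomal protein genes have near-identical pseudogene copies, which could take part of their reads. Oxidative phosphorylation genes had 27 ratios above 0 and 28 below, with a median of -0.00 (0.15 as deposited). Uqcrq, a complex III subunit gene, was the 1 called, at 196 FPKM (183–209) against 68.5 (60.1–76.9), a ratio of 1.35. Glycolysis and hypoxia genes were below 0 in 11 of 13, with a median of only -0.08, which turned to 0.07 as deposited.

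The blood cell genes among the 6697 were lower in the positive library. All 4 mast cell genes that passed the level limit were called lower, beside 2.58% of all genes, with a median of -1.83. So were all 3 erythroid genes, with a median of -1.81. Only 2 and 1 of them reached 5 FPKM in both libraries, and the rest passed through the negative library alone, so these counts are partly set by the limit. Srgn, which encodes the granule proteoglycan serglycin, stood at 3.36 FPKM (2.29–4.48) against 12.8 (10.8–14.7), a ratio of -1.79. The mast cell protease genes Cpa3, at 49.9 FPKM in the negative library, and Cma1, at 6.22 FPKM against 24.2, had ratios of -1.86 and -1.95, with values outside their bounds and, for Cpa3, a locus assembled in the negative library only. Alas2, the heme synthesis gene of red cells, stood at 3.28 FPKM (2.65–3.93) against 12.7 (11.4–14), a ratio of -1.81, and the joined alpha-globin entry at 1015 against 8249. Of the leukocyte genes Fcer1g, which encodes a signalling chain of Fc receptors, stood at 0.803 FPKM (0.327–1.30) against 6.52 (5.16–7.96), a ratio of -2.16. Other non-dermal genes were higher in the positive library: Stmn2, a tubulin-binding protein gene of neurons, at 47.4 FPKM against 15.8 with a locus assembled in the positive library only, Krt10, a keratin gene of differentiated epidermis, at 23.5 against 6.63 with a value outside its bounds, and Kcnj8, a pericyte potassium channel gene, at 6.58 against 1.70. The 3 pericyte genes among the members did not go together, since Acta2, a smooth muscle actin gene, had 0.49 and Pdgfrb -0.79.

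Among all genes with values inside their bounds and bounds apart, the extremes were in part non-coding or poorly bounded entries. The highest were Gm11470 (5.4), Gm15467 (5.13) and D230004N17Rik (4.02), followed by Prkcsh, a glucosidase II subunit gene, at 226 FPKM (191–262) against 19.4 (18.0–20.8), a ratio of 3.32. The lowest were Gm16345 (-5.10), the joined AL928544.1,Gm13879 entry (-4.54) and Serpine3 (-3.08). The loci of Gm11470 and D230004N17Rik were assembled in the positive library only. Those of Gm16345 and Serpine3 were assembled in the negative library only. All of these mixed entries thus went with the entry pattern described above. Of the protein-coding genes that reached 5 FPKM in both libraries and had the same kind of entry in both tables, the lowest after Actb was Hdac5, a histone deacetylase gene, at 5.19 FPKM (4.78–6.52) against 29.5 (24.8–34.4), a ratio of -2.44. Agtr2, the type 2 angiotensin receptor gene, and Gsn, the actin-severing protein gelsolin, named after their values were seen, stood at 111 FPKM (109–116) against 31.0 (29.3–33.0) and at 145 (135–156) against 38.8 (37.2–41.2). Their ratios were 1.66 and 1.72. Longer genes had slightly higher ratios, with medians of 0.02, 0.05, 0.10 and 0.12 from the shortest to the longest of 4 equal groups of 4463 genes with a length. The longest group held 71 genes called higher and 35 lower, and the shortest 36 and 29.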

How the data were processed

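Poly(A) RNA was sequenced from 2 back skin libraries, 1 sorted as Axin2-positive and 1 as Axin2-negative. The authors made the FPKM values, and per the submitters' processing notes the tools were TopHat and Cufflinks and the build mm9. Their versions and the annotation were not stated in the sources used. Per the file headers, each deposited FPKM comes with bounds on both sides and a status, and the confidence level of the bounds is not stated. Read counts, and so depth, were not used here.

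FPKM was summed per gene name, and 368 names with another status than OK were removed. Values were divided by median-ratio factors from 5697 genes of at least 5 FPKM in both libraries, and the ratio was taken as log2 with a pseudocount of 1, using Python 3.11.15, pandas 2.3.3 and numpy 2.4.6. The calculation was tested on simulated data. Of 965 symbols in 49 gene lists 918 were matched in both tables, 32 were joined differently and 15 were not matched. Genes listed at exactly 0 in a library were left out: 69 in the positive and 73 in the negative library had at least 5 FPKM in the other. Protein-coding status and length came from GENCODE M21 by symbol. Genes were named from Axin2, the 15 highest and 15 lowest with values inside their bounds and bounds apart, up to 6 most changed and 2 most abundant members of each list, any list member called, and markers near 0; not all of them are described. The genes and lists were chosen with earlier results of these data known.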

Additional observations from a re-analysis of the deposited data

Results flagged for a closer look

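Among the list genes above 0 in all 4 libraries that reached 5 FPKM in each skin, with back values inside their bounds, 3 were at least 2-fold apart in opposite directions in the back and in the foot libraries of the series. Fbn1 had a log2 ratio of 1.25 in the back and -2.50 in the foot (8.08 FPKM in the foot positive and 58.8 in the foot negative library), a difference of 3.75. Mfap5 had 1.07 and -2.0 (69.9 and 331 FPKM in the foot), a difference of 3.06. Myh9 had -1.90 and 1.72 (6.33 and 1.5 FPKM in the foot), a difference of -3.62. The number of list genes that met these conditions and the share among all genes are not given, so the 3 cannot be set against a background. The conditions held the back values to their bounds, but not the foot values. Each ratio rests on 1 library per group, the skins differ in site and in age, and the differences were not tested.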

How the results depend on the processing

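No paired analysis was possible because each group held 1 library, and for the same reason no library could be left out. Of 6697 genes, 241 were higher and 173 lower. Among genes annotated in both tables the counts were 31 and 34 of 1661, and among genes whose locus was the same, 145 were higher and 116 lower of 4997; these settings were chosen after seeing the data and test fewer genes. Other settings kept the counts within 1.5 times: factors from all 4 libraries (238 and 178), upper-quartile factors (210 and 199), a pseudocount of 0.1 (312 and 195) or 0 (315 and 200), a limit of 1 FPKM (339 and 246) or 10 FPKM (177 and 124), and coding genes only (188 and 117). Of 90 named genes that were 2-fold apart, 86 were still so as deposited. None changed sign, but this outcome was fixed in advance and is no check. Settings that only leave genes out keep each ratio as it was (11 of these genes remained among annotated entries and 53 with the same locus). The changes of scaling were too small to turn a gene that was 2-fold apart. Genes with small ratios, such as Lum and Twist2, do change sign as deposited. List medians near 0 changed sign most often as deposited, in 8 of 33 lists. The median of collagens turned to -0.21 with the same locus in both tables, and that of cell cycle inhibitors from 0.20 to -0.20 at 10 FPKM. Precision is set by the single library per group.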

Other observations

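Several genes could not be compared as members because a library lists them at 0. Spry2, an FGF feedback gene, stood at 29.1 FPKM in the positive library, above its own bounds, and was listed at 0 in the negative one, as were Cebpb (11.3 FPKM) and Tagln (10.7 FPKM). Cox8a, a subunit gene that every respiring cell uses, was listed at 0 in the positive library and at 125 FPKM in the negative one, so a 0 in these tables need not mean absence.

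All entries named for a beta-globin gene summed to 1603 FPKM in the positive and 12981 FPKM in the negative library. The entry holding Krt14 stood at 25.6 FPKM in the positive and 6.26 in the negative library, but joined more keratin genes in the positive one. The entries holding Jun stood at 29.1 and 45.7 FPKM and were also joined differently.

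Apod, a lipid carrier gene, stood at 57.2 FPKM (53.6–61.0) against 18.2 (16.1–20.3), a ratio of 1.45, and Apoe, another, had 0.75 (0.56–0.94). The trunk Hox gene Hoxd8 had a ratio of 0.68 (0.37–1.02).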
